A study of Mus musculus with 6 samples.

Results

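The regions described here are Eomes ChIP-seq regions outside promoters that a single experiment out of 3 recorded. They were selected on measured values: the intervals of 3 peak lists were merged wherever they shared at least 1 bp, regions with intervals from exactly 1 list were kept, and those whose row of largest pileup carried a promoter annotation (up to 3000 bp from an annotated transcription start) were set aside. This left 44976 member regions out of 84399 merged regions (53.3%), or 69.98% of the 64273 regions of a single list. Experiment 1 contributed 15217 members, experiment 2 contributed 11685 and experiment 3 contributed 18074. The remainder comprised 19297 promoter regions of a single list, 8231 non-promoter regions shared by 2 or 3 lists, and 11895 shared promoter regions. Being alone in its list is the rule by which a region entered, so neither its absence from the other lists nor its lower pileup is a finding.

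All samples came from 1 condition: wild-type C57BL/6 mice, 8 to 12 weeks old, whose splenocytes were pooled, purified for natural killer (NK) cells and cultured with IL-15 at 100 ng/mL for 4 days. Each of 3 separate experiments, by the labels, gave 1 library immunoprecipitated with an anti-Eomes antibody (3 in all) and 1 input library of chromatin without immunoprecipitation (3 in all). No group without Eomes was among the samples used here, and the animals in a pool cannot be told apart. The series asked where Eomes binds in mouse NK cells. Peak lists hold no expression values, so the labelled cell type was not checked against its marker genes here.

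Eomes is a T-box transcription factor that, with its relative T-bet, directs the maturation and identity of NK cells; in the embryo it acts in mesoderm and endoderm formation. T-box factors bind short DNA elements around the core AGGTGTGA. Many of the sites that such factors occupy lie in introns and between genes, where enhancers act over a distance on promoters. In ChIP-seq, DNA bound by the factor is pulled down with an antibody and sequenced, and a peak is a place where these fragments pile up above the background. Pileup is the height of that pile and is read here as fragments at the peak's summit, and fold is the pileup over the background that the authors' caller estimated.

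Sequence could be shown where a member lay just upstream of a gene start in the RefSeq annotation (GRCm38.p6, the assembly of mm10). RefSeq lists starts that the deposited annotation did not use, and 2025 members (4.50%) lay within 3000 bp of one, 860 (1.91%) within 1000 bp, and 162 covered one. The summits of 177 members fell inside 189 RefSeq start windows, which run from 250 bases before a start to 50 after it. The bases upstream of the start were searched in 168 pairs of a gene and a member, those whose interval covered enough of them, with 1 chromosome left out. In 3 of these pairs they held AGGTGTGA or its reverse complement TCACACCT; they are printed because they carry the element that T-box factors bind, 5′ to 3′ on the strand of the RefSeq gene, with the element in capitals. The first is chr2:167839991-167840165 on the minus strand, a whole member of experiment 3 with a pileup of 12 and a fold of 3.90, upstream of the start of Gm32747 and 264 bp from a shared region. The second is chr15:88854226-88854401 on the plus strand, a whole member of experiment 1 (pileup 11, fold 4.04) upstream of Gm33049 and 1022 bp from a shared region; the deposited annotation assigned it to Pim3, a serine/threonine kinase gene. The third is chr7:143466498-143466713 on the minus strand, most of a member of experiment 2 (pileup 11, fold 4.02) upstream of Gm33663 and 81745 bp from a shared region. It was assigned to Cdkn1c, which encodes a cyclin-dependent kinase inhibitor.
Gm32747: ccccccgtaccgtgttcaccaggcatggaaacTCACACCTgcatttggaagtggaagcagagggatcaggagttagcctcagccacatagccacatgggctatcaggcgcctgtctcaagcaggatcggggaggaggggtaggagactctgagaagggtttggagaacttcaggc
Gm33049: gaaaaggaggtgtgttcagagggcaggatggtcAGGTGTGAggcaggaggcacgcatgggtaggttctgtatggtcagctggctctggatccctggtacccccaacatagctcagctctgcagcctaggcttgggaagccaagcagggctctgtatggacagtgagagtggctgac
Gm33663: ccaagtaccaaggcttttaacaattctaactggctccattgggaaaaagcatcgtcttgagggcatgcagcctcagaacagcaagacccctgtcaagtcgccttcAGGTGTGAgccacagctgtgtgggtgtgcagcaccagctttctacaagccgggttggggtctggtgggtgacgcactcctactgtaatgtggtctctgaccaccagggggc

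For contrast, the members of largest pileup in such windows carried neither AGGTGTGA nor the shorter GGTGTGA in these bases. The first is the member chr11:51883663-51884005 (pileup 25, fold 4.16, experiment 3), upstream of Gm39821 and assigned to Jade2. Of it, chr11:51883779-51884005 is printed, on the plus strand. The second is the member chr15:84896748-84896990 (pileup 24, fold 4.65, experiment 3), upstream of Gm46528 and assigned to the nuclear pore gene Nup50. Of it, chr15:84896748-84896944 is printed, on the minus strand. The remaining bases of both members are not shown.
Gm39821: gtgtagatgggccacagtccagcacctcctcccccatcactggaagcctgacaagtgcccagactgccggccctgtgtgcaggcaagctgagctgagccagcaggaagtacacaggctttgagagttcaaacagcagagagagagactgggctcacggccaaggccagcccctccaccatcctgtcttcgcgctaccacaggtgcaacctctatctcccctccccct
Gm46528: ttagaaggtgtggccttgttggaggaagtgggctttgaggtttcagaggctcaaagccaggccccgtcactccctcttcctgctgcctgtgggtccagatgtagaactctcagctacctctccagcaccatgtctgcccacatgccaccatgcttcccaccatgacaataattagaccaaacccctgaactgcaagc

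Counted over whole start windows and both strands, AGGTGTGA occurred in 6 of 189 windows with a member summit, which is 3.17% (Wilson 95% interval 1.46 to 6.75). It occurred in 5 of 100 windows with the summit of a shared non-promoter region (5.0%, 2.15 to 11.2), in 14 of 1812 windows with a single-list promoter summit (0.773%), in 52 of 4953 windows with a shared promoter summit (1.05%), and in 419 of all 32851 RefSeq start windows (1.28%). The intervals of the member windows and the shared non-promoter windows overlapped. The contained core GGTGTGA was present in 5.82% of member windows (3.28 to 10.1), 17.0% of shared non-promoter windows (10.9 to 25.5) and 3.98% of all windows. For this core the intervals of the members and the shared regions did not overlap. Windows were pooled over the experiments, and the 189 member windows held the summits of only 177 members. The intervals cover counting error alone, not the spread between experiments, and no motif share was tested. The letters AACCACA, bound by Runx factors, stood in 10.1% of member windows and 15.0% of shared non-promoter windows, against 5.27% of all windows. TGANTCA, the AP-1 element, stood in 11.1% and 14%, against 7.81%. CCGGAAGT, an Ets element, stood in 3.17% and 2.0%, against 3.89% of all windows and 12.9% of those with a shared promoter summit. CACCTG, an E-box whose reverse complement overlaps AGGTGTGA where a C stands before it, stood in 23.8% and 24.0%, against 20.2% of all windows. Median GC content was 55.0% in member windows, 57.5% in shared non-promoter windows and 52.7% over all windows, and its part in these shares was not tested. These windows hold a small fraction of the members, those beside a RefSeq start, and the shares describe them alone.

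Members lay between genes and within introns in nearly equal numbers. Of 44976 members, 19661 (43.7%) were distal intergenic, 19283 (42.9%) intronic, 3687 (8.20%) exonic, 1392 (3.09%) in a 3′ UTR, 839 (1.87%) just downstream of a gene and 114 (0.253%) in a 5′ UTR. Over the 3 experiments the distal intergenic share averaged 43.7% ± 1.47 (SD, n = 3) and the intronic share 42.8% ± 0.905 (SD, n = 3). Shared non-promoter regions had 44.2% ± 0.522 and 44.1% ± 0.176 (SD, n = 3) in the same classes. Exons held 8.33% ± 1.07 of members (7.64%, 9.56% and 7.79% in experiments 1 to 3) and 6.30% ± 0.444 of shared non-promoter regions (SD, n = 3). The class downstream of genes held 1.86% ± 0.0689 of members and 2.39% ± 0.0885 of shared regions (SD, n = 3). Class shares were not tested.

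Within introns, 4088 members (21.2%) lay in a first intron, where many enhancers are found. In 63.6% of intronic members the gene that contained the intron was also the assigned gene, so for the remainder the nearest start belonged to a different gene. Among intergenic members, 20.7% lay within 10000 bp of an annotated start, 46.8% between 10000 and 50000 bp, 15.9% between 50000 and 100000 bp, and 16.7% farther away. Pileup hardly varied with class: the median was 11 fragments in each of the 6 classes. Regions below are named by the gene with the nearest start, which need not hold the exon or UTR. The largest exonic pileups were assigned to Mroh2a (33 fragments, fold 3.40), Myog, the muscle-lineage transcription factor (32, 3.11), and Sp9, a zinc-finger factor (31, 5.95). Median fold of exonic members was 3.90. In 3′ UTRs they were assigned to Tmem170 (64 fragments, fold 19.2), Mroh2a (36, 3.12) and Coro6, a member of the actin-binding coronin family (27, 12.1). The Coro6 region lay 4494 bp upstream of the Coro6 start. Downstream of genes they were assigned to Ifna13, a type I interferon gene (33, fold 3.20), Gm7334 (30, 5.23) and Grb7, an adaptor of receptor tyrosine kinases (24, 7.87). In 5′ UTRs they were assigned to Col8a2, a collagen chain (20, 5.80), Tmcc1 (20, 3.55) and Sbno2 (18, 5.49).

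Most members were weak peaks. Median pileup was 11, 10 and 12 fragments in experiments 1, 2 and 3, against 16, 13 and 21 for the peaks of the same lists in shared non-promoter regions. The smallest pileup in each list was 8, 7 and 9 fragments, so the typical member stood 3 fragments above its list's smallest value. Median fold was 3.91, 4.31 and 3.86 in members and 4.69, 5.15 and 5.02 in shared non-promoter peaks. Members were also narrower, with median widths of 175 and 170 bp against 238 and 228 bp in experiments 1 and 2; in experiment 3 their quartiles were 176 and 243 bp against 227 and 405 bp. Sequencing depth per library was not given in the sources used here; the lowest background in a list, 1.82, 1.32 and 2.33 fragments, ordered the experiments the same way as the median pileups. From 52.7% to 66.1% of an experiment's members sat at that lowest background.

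The share of non-promoter regions that stood alone fell steeply with pileup. In experiment 1, 87.9% of regions with 9 to 10 fragments were members (Wilson 95% interval 87.0 to 88.7), 47.0% of those with 15 to 16 fragments (44.3 to 49.6) and 2.77% of those with 21 to 25 (1.82 to 4.19). In experiment 3, the same bins held 91.7%, 77.2% and 21.9%, while 0 of 657 regions with 41 to 60 fragments and 1 of 376 above 60 were members. In experiment 2 the share was 13.4% at 17 to 20 fragments, 13.8% at 21 to 25 (11.2 to 17), 12.5% with 26 to 30, 7.85% with 31 to 40, 7.34% with 41 to 60 and 7.62% above 60 (3.91 to 14.3). The interval for experiment 2 at 21 to 25 fragments lay above that of experiment 1 and below that of experiment 3 (19.9 to 24.0). These intervals cover counting error alone, and pileups are not on a common depth scale between lists.

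**Figure D1:**
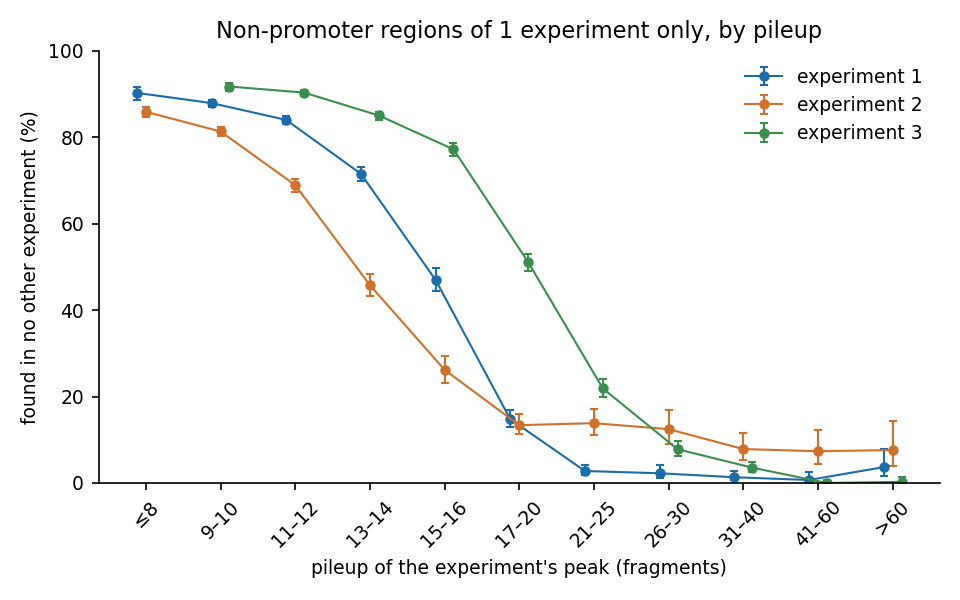
Percentage of each experiment's non-promoter regions that no other experiment recorded (y axis) by the pileup of that experiment's peak in fragments (x axis, binned); points are shares and bars Wilson 95% intervals. All 3 curves start between 85.9% and 91.7%; experiment 2 lies between 7.34% and 13.8% above 20 fragments, where experiments 1 and 3 fall to 3.66% or less above 40.

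Nearly all members of high fold came from experiment 2 (the fold limit of 10 and the width range below were chosen after the values were seen). At a fold of 10 or more, experiment 2 had 78 members among 626 non-promoter regions (12.5%, Wilson 95% interval 10.1 to 15.3). Experiment 1 had 0 of 513 (upper bound of the interval 0.743%), and experiment 3 had 1 of 819 (0.122%, 0.0216 to 0.688). With a limit of 8 the share in experiment 2 was 14.9%, and with a limit of 15 it was 10.7%. With peaks on over 2 times the lowest background removed from all 3 lists before merging, it was 104 of 578 (18.0%) at a limit of 10. Regions whose counterpart in another list was removed then count as members. Of the 78 members, 45 were distal intergenic, 28 intronic and 7 on the X chromosome, and their median distance to a shared region was 46390 bp.

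The highest fold of any member was at chr9:62608463-62608801, between genes and 69025 bp from the start of Itga11, an integrin subunit that binds collagen. Its pileup was 84 fragments and its fold 36.6, and its nearest shared region was 202147 bp away. The next was chr10:37263626-37263923 near Gm26535, with 83 fragments and a fold of 32.4. An intronic member assigned to Gm27539 (chr7:143368281-143368582) had 59 fragments and a fold of 25.8, and the 3′ UTR member assigned to Tmem170 (chr8:111865510-111865813) had 64 and 19.2. All 7 members of this fold on X had between 24 and 30 fragments, among them 1 in an intron, assigned to the splicing gene Rbm10 (chrX:20627442-20627705, 24 fragments, fold 10.8).

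The widths of these 78 peaks fell in a narrow range. Their quartiles were 270, 278 and 284.5 bp, and 65 of them (83.3%) measured between 260 and 290 bp. Among the 548 shared non-promoter peaks of fold 10 or more in the same list, the quartiles were 289.75, 366 and 468 bp and 84 (15.3%) fell in that range. The range held 11.7% of the shared peaks of this fold in experiment 1 and 3.91% in experiment 3. Of the 78, 57 stood at the lowest background of the list, as did 84 of the 548. The same list also had 14 promoter regions of its own at this fold. What produced the narrow widths was not tested.

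**Figure D2:**
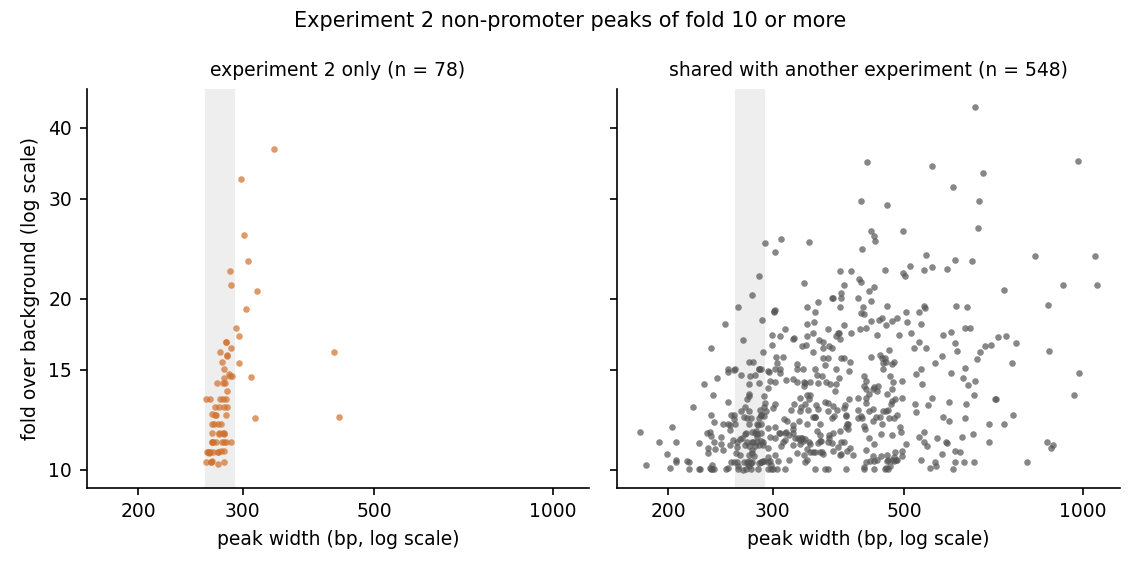
Peak width in bp (x axis, log scale) against fold over background (y axis, log scale) for experiment 2 non-promoter peaks of fold 10 or more; each point is a peak, left those without a counterpart in another experiment (78), right those with one (548), and the grey band spans 260 to 290 bp. The left points crowd into the band (83.3% of them) while the right points spread to both sides (15.3%).

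A second kind of strong member had a high pileup on a high background. In experiment 1 the largest pileup on the main chromosomes was 183 fragments at chr15:75086364-75086539, 25145 bp from the start of Ly6c2, a surface antigen of monocytes and some lymphocytes, but the background there was 102 fragments and the fold 1.78. The next members of experiment 1 on these chromosomes were assigned to Fbxw4 (113 fragments, fold 2.09), Gm5466 (88, 1.52), Vmn1r-ps151 (82, 2.81) and Osbpl1a (46, 2.81). In experiment 2, members near Gm16505 (91 fragments, fold 2.00), Gm5466 (79, 2.94) and Pak3 (76, 1.5) also had a low fold. Counted over all sequences, 6, 9 and 1 members of the 3 experiments had over 10 times the lowest background; Osbpl1a was not among them. Experiment 3 had its largest pileups on the main chromosomes near Ppp1r3b, a regulatory subunit that directs protein phosphatase 1 to glycogen (40 fragments, fold 7.63), Erdr1 (39, 3.48), the cold-sensing channel gene Trpm8 (38, 2.94), Gm23101 (36, 8.22) and Rnf157 (36, 6.77).

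Background above 2 times the lowest value was rarer in members than in shared regions: it was found for 0.861%, 0.881% and 1.11% of members against 11.8%, 11.1% and 12.2% of shared non-promoter peaks.

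Members lay far from shared regions. The median number of bases to the nearest shared region was 32092, 29779 and 22800 in experiments 1, 2 and 3, a mean of 28224 ± 4837 bp (SD, n = 3). Promoter regions of a single list had medians of 8114 ± 1454 bp (SD, n = 3), and shared non-promoter regions lay a median of 9496 ± 310 bp (SD, n = 3) from the next shared region. Members were farther than single-list promoter regions in 3 of 3 experiments, by 20110 ± 3396 bp (SD of the paired differences, n = 3). An exact two-sided sign-flip permutation test over the experiments gave p = 0.25, the smallest value that 3 pairs allow, and the unpaired exact permutation test gave p = 0.1, also its smallest. The promoter annotation divides these groups, and 11895 of the 20126 shared regions are promoter regions, so the rule itself favours this direction. These tests therefore cannot separate the difference from the rule. Without experiment 3 the pooled median distance of members was 46786.5 bp in place of 27346 bp. Fewer regions then counted as shared, and the members of experiment 3, whose median was the shortest, dropped out. These parts were not separated.

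Within 10000 bp of a shared region lay 28.1% ± 3.72 of members, 53.6% ± 2.91 of single-list promoter regions and 51.3% ± 0.631 of shared non-promoter regions (SD, n = 3). At the far end, 23.9% ± 3.09 of members and 9.19% ± 1.14 of single-list promoter regions lay over 100000 bp away (SD, n = 3). Distance varied with class: the pooled median was 42826 bp for intergenic members, 22995 for intronic, 16791 for exonic, 13806 for 3′ UTR, 13602 for downstream and 11162 for 5′ UTR members. For 47.1% of members the nearest shared region was a promoter region. In 53.2% of cases it was assigned to the same gene as the member (50.8%, 51.9% and 56.1% by experiment).

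**Figure D3:**
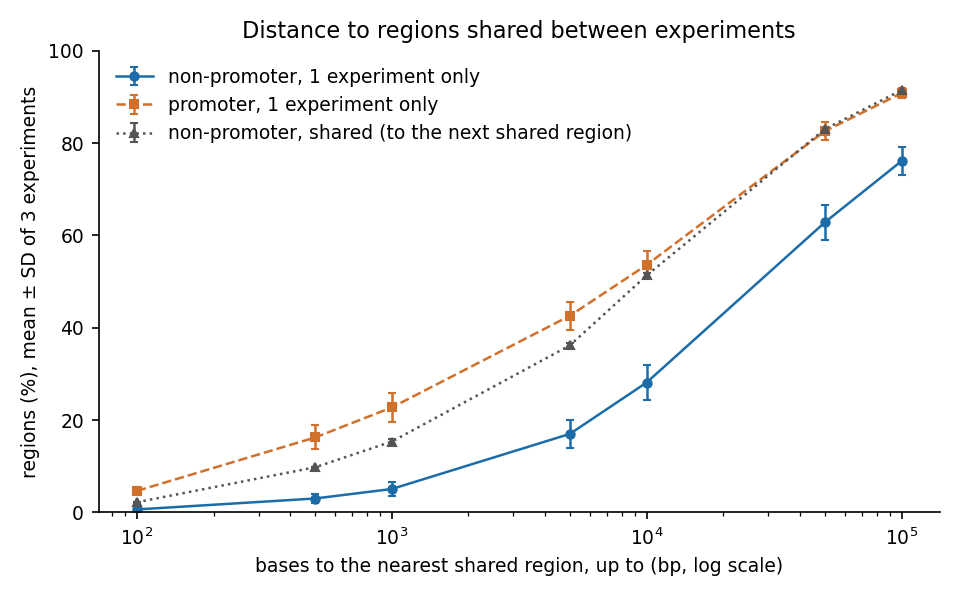
Cumulative percentage of regions (y axis, mean of 3 experiments, bars ± SD) within a given number of bases of the nearest shared region (x axis, bp, log scale). The curve of non-promoter regions of 1 experiment runs below both others at each distance plotted, with 28.1% within 10000 bp against 53.6% and 51.3%.

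Each shared region holds a peak of another experiment, so by construction the distance to such a peak can hardly exceed that to a shared region. The median number of bases from a member to the nearest peak of another experiment was 7479, and 6084 members (13.5%) had one within 1000 bp. The pooled density of members fell with this distance: 835 members per 100 bp stood 0 to 99 bp from such a peak, 787 at 100 to 199 bp, 700 at 200 to 299 bp, 387 at 1000 to 1999 bp and 34.4 at 10000 to 49999 bp. A density of nearest distances falls with distance even for randomly placed regions, and no expected density was computed. Between the first distance and 1000 to 1999 bp the density went from 268 to 124 in experiment 1, from 257 to 100.5 in experiment 2 and from 310 to 161.9 in experiment 3. The fall was not steady in each list: experiment 3 was highest, at 370, from 100 to 199 bp. Experiment 2 had 197 at that distance and 206 at 200 to 299 bp. At the edge of the rule, some regions touched a peak of another list with 0 bases between and were members. They were an exonic region near Cpne5 (experiment 3, pileup 15), an intronic region near Sla2 (experiment 1, 14) and a 3′ UTR region near Rpl27a-ps1 (experiment 3, 13). Regions near Zfp964, Zfp777 and Gm26197 shared 1 bp (pileups 15, 12 and 11) and were not. In all, 79 members stood under 10 bp from a peak of another list, and 36 shared non-promoter regions had under 10 bp in common. At the promoter limit, regions assigned to Sla (in a 3′ UTR), Vmn2r-ps68 and Tnik lay 3001 bp from a start and were members. Those assigned to Slc38a10, Rreb1 and Gm15123 lay at 3000 bp and were not.

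**Figure D4:**
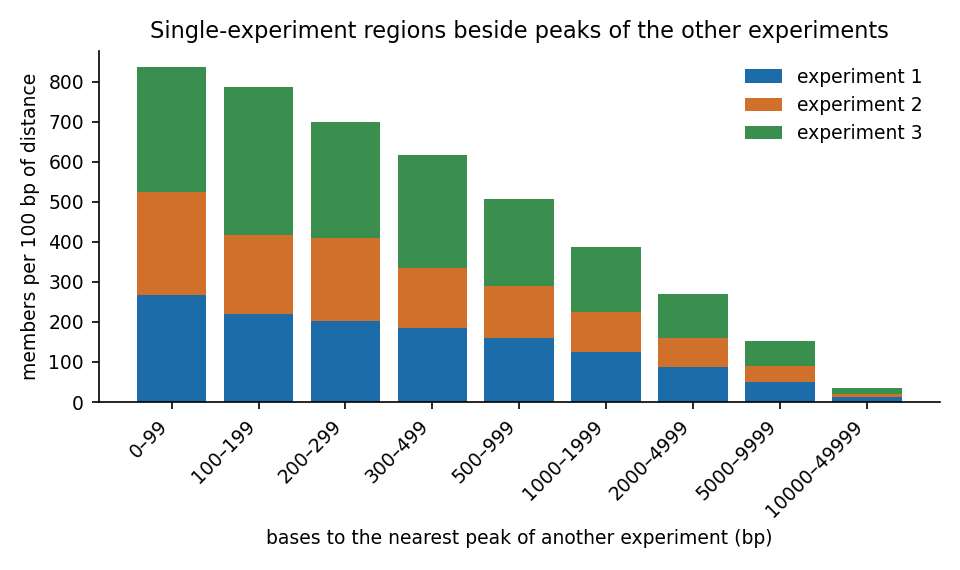
Members per 100 bp of distance (y axis, stacked by experiment) against the bases to the nearest peak of another experiment (x axis, binned in bp). The total falls from 835 in the bin of 0 to 99 bp to 34.4 in the bin of 10000 to 49999 bp.

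Through the deposited nearest-gene assignment, 29775 members (66.2%) belonged to protein-coding genes of the RefSeq table. Of 21887 such genes on the main chromosomes, 9907 had at least 1 member (45.3%) and 1978 had members in each of the 3 experiments (9.04%). Thus 4816 genes had members in exactly 1 experiment and 3113 in exactly 2. Among genes with a member, 4028 (40.7%) had no shared region. Over all 21887 genes, 9554 had a shared region, so lacking one was more common over all genes than among those with a member. Genes with a member were longer, with a median length of 30.5 kb against 10.3 kb for genes without one and 60.1 kb for those with members in each experiment. Across 21887 genes, which are not independent replicates, the Spearman correlation of member number was 0.41 with gene length and 0.38 with the number of shared regions.

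The gene with most members was Gse1, with 62 (15, 19 and 28 in experiments 1 to 3) beside 25 shared regions. Nav2, a navigator protein of the cytoskeleton, had 45 (11, 15 and 19) beside 9 shared. Nfatc1, a calcineurin-dependent transcription factor, had 35 (10, 8 and 17). Hivep3 had 33, the kinase gene Sik1 30, Cmip 30, Auh, an enzyme of leucine breakdown, 30, and Cdh23, a cadherin, 29. Id2, which encodes an inhibitor of E proteins needed for NK cells and innate lymphoid cells, had 31 members (12, 9 and 10) although the gene spans 2.29 kb, and it had 29 shared regions. Its largest member lay at chr12:25247001-25247294, 150909 bp from the start, with a pileup of 25 fragments and a fold of 5.54 in experiment 3. No member assigned to the genes of this paragraph exceeded 26 fragments. In total, 415 genes had 10 or more members and 42 had 20 or more.

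Transcription factor genes of NK cells and type 1 innate lymphoid cells had the highest share of genes with a member among the 13 lists. Of 33 such genes, 31 had a member and 15 had members in each experiment, 93.9% and 45.5% against 45.3% and 9.04% of all protein-coding genes, with a median of 4 members against 0. These genes are long, with a median of 81.8 kb against 17.2 kb, and all 33 also had a shared region. Per 100 kb of gene length they had 6.50 members against 2.83 over all genes. In 5 lists the value was higher: ribosomal protein genes (27.1), cytokine receptors and signalling (10.1), mesoderm and endoderm genes (9.04), cytotoxic machinery (8.87) and cytokines (7.87). This ratio counts members by nearest start, also those outside the gene. It is therefore no density along the gene and runs high for short genes, as for Id2 (1351 per 100 kb at 2.29 kb). Runx1 had 25 members (8, 5 and 12) and Runx3, which cooperates with T-box factors in cytotoxic lymphocytes, had 20 (5, 3 and 12). The largest Runx1 member was at chr16:92867148-92867407, 41082 bp from the start (25 fragments, fold 5.36), and the largest Runx3 member at chr4:135203294-135203508, 48858 bp from the start (20 fragments, fold 5.50). Eomes itself had 1 member, in experiment 2, beside 8 shared regions, and Tbx21, which encodes T-bet, had 1, in experiment 1, beside 2 shared regions.

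Of 34 cytokine receptor and signalling genes, 28 had a member and 12 had members in each experiment (82.4% and 35.3%), with a median of 2. Over all protein-coding genes the shares were 45.3% and 9.04%. The genes of this list had a median length of 31.8 kb against 17.2 kb, and 29 of the 34 had a shared region. Smad3, which carries TGF-beta signals to the nucleus, had 29 members (11, 8 and 10), and Tgfbr2, a TGF-beta receptor chain, had 25 (7, 4 and 14). Il21r, the IL-21 receptor, had 15 (5, 2 and 8). The IL-15 receptor chains Il2rb and Il15ra had 7 and 2. The largest Tgfbr2 member lay at chr9:116214348-116214555 with 20 fragments and a fold of 6.17.

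Genes for NK receptors and effector molecules had 0 to 1 members at the median of each list. Of 33 receptor and adaptor genes 15 had one (45.5%), 0 had members in each experiment, and the median was 0; Klrb1c, the NK1.1 antigen, Tyrobp, the adaptor DAP12, and Cd160 had 3 each. Of 20 genes of the cytotoxic machinery 13 had one (65.0%), led by Tnfsf10, the death ligand TRAIL, with 7 (3, 1 and 3), Fasl with 4 and Srgn, the granule proteoglycan, with 4. Perforin (Prf1) and granzyme B (Gzmb) had 1 each beside 4 shared regions each. Of 14 cytokine genes 7 had one: Xcl1 had 5 (0, 2 and 3), Ifng, the interferon of NK cells, had 3 (1, 1 and 1) beside 5 shared regions, and Tgfb1 had 2. Of 24 migration and adhesion genes 16 had one (66.7%), led by Ccr7, the lymph-node homing receptor, with 10 (3, 2 and 5), Selplg with 6 and Itga2 with 5. Over all protein-coding genes the share was 45.3%, and the receptor list stood at it. The receptor list held 3.27 members per 100 kb and the migration list 5.12.

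Among the members of these genes described next, pileups ran from 9 to 26 fragments, and most were intergenic. Klrb1c had its largest at chr6:128763839-128764422 (experiment 3, 19 fragments, fold 4.45), 24064 bp from the start and 2700 bp from a shared region. The largest near Tyrobp was chr7:30408777-30408981 (experiment 3, 16 fragments, fold 4.51), 4807 bp from the start, and a member of experiment 1 lay at chr7:30393724-30393883 (14 fragments, fold 5.24). The 3 members of Ifng came from 3 experiments and from 3 places: chr10:118455810-118455988 in experiment 1 (11 fragments), 14763 bp from the start, chr10:118580687-118580882 in experiment 2 (9 fragments), 139640 bp away, and chr10:118519583-118519757 in experiment 3 (9 fragments), 78536 bp away. Near Tnfsf10, members of experiments 1 and 3 stood close together at chr3:27257312-27257508 and chr3:27258420-27258737, each with 12 fragments, but did not overlap. The largest member of Xcl1, a chemokine for dendritic cells, lay at chr1:164975754-164975984 (19 fragments, fold 6.01), and that of Ccr7 at chr11:99124148-99124322 (14 fragments, fold 4.47), 487 bp from a shared region. For Smad3 it was the intronic chr9:63724709-63724916 (19 fragments, fold 4.45), 1620 bp from a shared region, and for Il21r chr7:125593880-125594229 (26 fragments, fold 3.79), 366 bp from one. Largest here means largest pileup over lists of unequal depth; 2 further Ccr7 members had the same pileup of 14 fragments, 1 of them in experiment 1 (chr11:99176744-99176958, fold 5.33).

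Genes of other cells and tissues also had members, at shares to be read against 45.3% of all protein-coding genes. Of 19 T cell genes 12 had one (63.2%), with Thy1 at 10 (5, 0 and 5), Themis at 6 and Cd6 at 6. Of these 12, 5 had no shared region, against 40.7% of all protein-coding genes with a member. Of 15 B cell genes 9 had one (60%), with Ebf1, a B-lineage factor, at 7 (2, 2 and 3) and no shared region, Blnk at 4 and Bank1 at 3. Of 17 myeloid genes 9 had one (52.9%), with Cebpb, Csf1r and Cebpa at 3 each. Of 18 genes of mesoderm and endoderm, the embryonic tissues in which Eomes acts, 10 had one (55.6%), with Gata4 at 4 and T (brachyury) and Fgf8 at 3 each. Of 10 liver genes 5 had one (50%), with Ttr at 4 and Hnf4a at 3. Ribosomal protein genes had the lowest share of genes with a member, 5 of 30 (16.7%), at a median length of 3.76 kb, and the highest number per 100 kb (27.1). Of the 32 members of this list, Rplp1 had 19 (4, 5 and 10) and Rps14 had 10. The largest Rplp1 member lay 231778 bp from the start of Rplp1, which was the nearest annotated gene.

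Very long neuronal genes had members about as often as the cytokine receptor genes, with a low ratio of assigned members to gene length. Of 20 such genes, of median length 1500 kb, 17 had a member (85.0%) and 5 had members in each experiment (25%). Over all protein-coding genes these shares were 45.3% and 9.04%. Per 100 kb of gene length the neuronal genes had 0.247 assigned members, against 2.83 over all protein-coding genes and 6.50 in the NK transcription factor list. Members were assigned by nearest start, so this ratio is no density along the gene. Of the 17, 12 had no shared region, against 4028 of the 9907 protein-coding genes with a member (40.7%). Cdh13, a cadherin, had 16 members (6, 3 and 7), Rbfox1, a splicing factor, had 10 and Csmd3 had 8 with no shared region. No test was run on any list, since lists and members were both chosen with results of these data known.

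**Figure D5:**
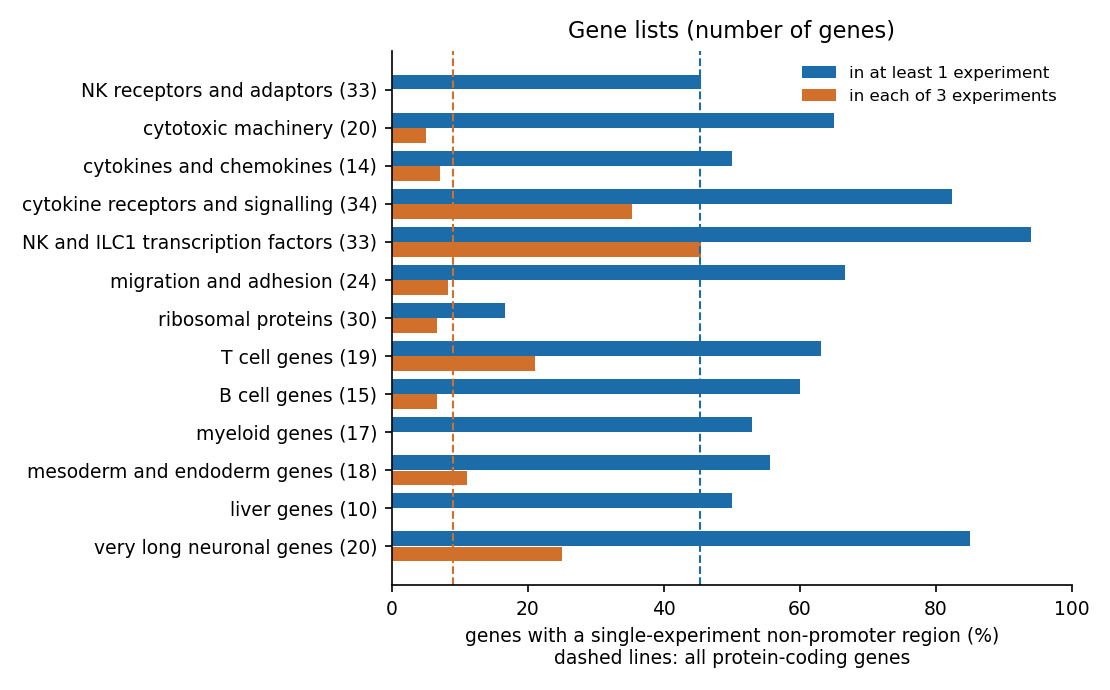
Percentage of genes in each list (number of genes in brackets) with a member in at least 1 experiment (blue bars) and in each of the 3 experiments (orange bars); dashed lines mark all protein-coding genes at 45.3% and 9.04%. NK transcription factor genes reach 93.9% and 45.5%, ribosomal protein genes 16.7% and 6.67%.

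Among the autosomes, chromosomes 11 and 17 had most members per Mb (24.9 and 24.0) and most shared non-promoter regions (4.88 and 4.84), and chromosome 3 had fewest of both (12.5 and 2.02). Members were scarce on the X chromosome. It held 91 of 44976, or 0.533 per Mb, while the autosomes held 12.5 to 24.9 per Mb with a median of 19.5, and X carries 4.41% of the protein-coding genes. Experiment 1 had 11 members on X (0.0723%, Wilson 95% interval 0.0404 to 0.129), experiment 2 had 55 (0.471%, 0.362 to 0.612) and experiment 3 had 25 (0.138%, 0.0937 to 0.204). The interval of experiment 2 lay above both others. Shared non-promoter regions were scarce there too, with 0.347%, 0.397% and 0.386% in the peaks of the 3 experiments. The difference between members and shared regions averaged −0.149 ± 0.194 percentage points (SD, n = 3), with members lower in 2 of 3 experiments, and the exact two-sided sign-flip permutation test gave p = 0.5. The sex of the pooled mice was not given in the sources used here, and its part in these counts was not tested. The Y chromosome had 10 members.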

How the data were processed

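The 3 deposited peak lists, 1 per experiment, were analysed; each pairs an immunoprecipitated library with the input of its experiment, per the sample labels, and peaks were thus called per experiment. Reads were aligned with Novoalign to mm10 and peaks annotated with ChIPseeker, per the submitters' processing notes. The peak caller and its settings were not given in the sources used here. The pileup signal, the fold ratio over background and the −log10 p-value and −log10 q-value of each peak are the authors' deposited values, per the file headers. They served to describe and rank peaks inside their own list. Background was recovered as (pileup + 1) / fold − 1. The lists hold 39073, 35421 and 50563 rows in 37456, 33841 and 46329 intervals, and 20, 23 and 25 peak numbers have no row. The length column is 1 bp longer than the interval throughout (100% of rows), which leaves starts uncertain by 1 bp.

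Closed intervals sharing 1 bp were merged in Python 3.11.15 with pandas 2.3.3; the number of regions equalled that of bedtools 2.31.1 (84399), and the merging, member finding and distances were tested on simulated lists. Distances count the bases between regions. Gene symbols were matched by symbol and chromosome to RefSeq GRCm38.p6. Experiments are the replicates: tests were exact sign-flip permutations over the 3 experiments (scipy 1.17.1 for the unpaired form). Replicate numbers pair lists of the same experiment, and each comparison is between regions of 1 list. Wilson 95% intervals (statsmodels 0.14.6) cover counting error alone; PCR copies are not independent molecules. Genes and regions were named by rule: the 5 largest pileups per experiment and 3 per class, the 10 genes with most members, the 3 leading genes per list, and 3 regions on each side of each threshold (some of these genes are not reported here); Il2rb, Il15ra, Eomes, Tbx21, Prf1, Gzmb and the regions of high fold were added after their values were seen. The members and gene lists were chosen with earlier results of these data known. Motifs were counted in RefSeq start windows in place of summit windows of all members, a change made after the files were seen, because no genome was used here.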

Additional observations from a re-analysis of the deposited data

How the results depend on the processing

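Of 69 values computed under alternatives, 63 were counted as the same, 6 moved and 0 reversed direction. For numbers of members, same meant within 1.5 times, and for class shares and distances within the SD between experiments. For tested differences it meant the same sign, and for the share of high fold a value within its Wilson interval. The unpaired tests keep the same difference by construction. No member had over 1 interval, so the annotation of the best q could not change the values. The alternatives merged peaks up to 100 or 500 bp apart, asked for 50% overlap, removed peaks with −log10 q under 2 or high background, took the annotation of the best q, kept the main chromosomes, or left out an experiment. The number of members ranged from 30943 to 52133. Counting promoter classes beyond 1000 bp as outside promoters lowered the distal intergenic share from 43.7% to 37.7%. Leaving out each experiment in turn gave median distances to a shared region of 32968.5 to 46786.5 bp against 27346 bp, and shares within 10000 bp of 19.6% to 25.2% against 28.5%. By construction each removal leaves fewer shared regions and takes out the members of that experiment. Leaving out members within 3000 bp of a RefSeq start, chosen after seeing the data, left 42951 members. Without the replicate block, in an unpaired exact permutation test, the distance comparison gave p = 0.1 and the X comparison p = 0.4. Those differences were 20110 bp and −0.149 points, and without each experiment in turn they were 22148 to 28978 bp and −0.270 to −0.0713 points. The rule itself favours the sign of the distance difference, so an unchanged sign there adds no support. The members' share of experiment 2 regions of fold 10 or more, 12.5%, ranged from 10.7% to 14.9% with fold limits of 8 or 15, wider merging, or experiment 1 or 3 left out. It was 18.0% (104 of 578) without high-background peaks, a removal that also takes counterparts out of the other lists. Without the experiment 2 members of fold 10 or more, 84 members on X remained. The planned T-box motif shares over all members were not run without a genome. The lists hold no peak under 7 to 9 fragments, so weaker sites could not be examined; whether depth or the reporting limit sets this was not tested.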

Other observations

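Members gathered in some stretches of the genome. In windows of 100 kb, 15241 held a member, with a median of 2 and a maximum of 31, and 539 held 10 or more; the window size was chosen after the data were seen. The densest was chr4:135000001-135100000 beside Syf2, next to the Runx3 gene, with 31 members (11, 4 and 16 in experiments 1 to 3) and 14 shared regions, and the adjoining window chr4:135100001-135200000, which included members assigned to Runx3, held 23 (4, 3 and 16). A window at Prex1, which encodes an exchange factor for Rac (chr2:166600001-166700000), held 27 (4, 6 and 17) beside 15 shared regions. The window at Sik1 (chr17:31800001-31900000) held 26 (8, 8 and 10) beside 11. A window with Ip6k3, an inositol phosphate kinase, and Uqcc2 (chr17:27100001-27200000) held 25 members (11, 6 and 8) beside 3 shared regions, the fewest among the 10 densest windows. The window at Plec, which encodes the linker protein plectin (chr15:76100001-76200000), held 23 (11, 5 and 7) beside 8.

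Beyond the 21 main chromosomes, 16 members lay on 6 other sequences, with a median pileup of 19.5 fragments (8 to 109) and a median fold of 2.79 (1.82 to 7.67).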
